A study of Mus musculus with 4 samples.

Results

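The Hox genes of large spinal motor neurons were examined as every gene whose symbol is Hox, a cluster letter from a to d and a paralog number. All 39 were found, among the 27189 genes given in each library, with 1 entry each. They lie in 4 clusters, Hoxa on chromosome 6, Hoxb on chromosome 11, Hoxc on chromosome 15 and Hoxd on chromosome 2 of mm9. The expression unit was RPKM, reads per kilobase of transcript scaled to the uniquely mapped reads of the library, which is per length and so allows levels of different genes to be compared. Polyadenylated RNA was sequenced from 4 libraries, each from 1 mouse aged 3 months. Strain 592 gave the 2 wild-type libraries and is transgenic for wild-type human SOD1 fused to YFP, whereas strain 737 gave the 2 G85R libraries and is transgenic for the same fusion with the G85R mutation. Mutations of SOD1 cause inherited amyotrophic lateral sclerosis, and nearly all G85R animals are still without paralysis at this age. Both strains carry a human SOD1 genomic fragment on a C57BL/6J x SJL/J background, and the wild-type strain carries far fewer copies, so that genotype, copy number and strain cannot be told apart. From each animal, 3000 to 4000 cell bodies of the ventral horn were laser captured after Azure B staining, and cells with large fluorescent aggregates were left out. The cord was cut into pieces along its length and the sections of all pieces were captured together, so that a level is a mixture over cord segments. In such a mixture, fewer cells expressing a gene and less RNA of it per cell cannot be told apart.

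Hox genes encode transcription factors that bind DNA through a homeodomain. They stand in the clusters in the order in which they are used along the body axis, with low paralog numbers active toward the hindbrain and high numbers toward the tail. In the embryonic spinal cord, groups 4 to 8 are used at brachial levels, group 9 at thoracic levels and groups 10 and beyond at lumbar and sacral levels, where they take part in assigning motor neurons to columns and muscle pools.

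The third helix of the homeodomain, which contacts DNA, shows how alike the paralogs are. Below are 30 coding bases of that helix in 6 genes, those with the highest level in their paralog group for groups 5, 7, 8, 9, 10 and 11, chosen because the levels fall steeply from group 10 to group 11. They were read from the GENCODE transcripts of NCBIM37, the same assembly as mm9, and each lies within a coding exon. Capitals mark bases that differ from Hoxa7.
Hoxb5, chr11:96166362-96166391, plus strand: tggttccagaaCcgTcgcatgaagtggaag
Hoxa7, chr6:52165851-52165880, minus strand: tggttccagaatcggcgcatgaagtggaag
Hoxc8, chr15:102823143-102823172, plus strand: tggttccagaatcgAAgGatgaagtggaaA
Hoxd9, chr2:74537413-74537442, plus strand: tggttccagaaCcgTAgGatgaaAATgaaA
Hoxc10, chr15:102801420-102801449, plus strand: tggttTcaAaatcgCAgAatgaaACTCaag
Hoxd11, chr2:74522115-74522144, plus strand: tggttccagaatcgCAgGatgaaAGAAaag

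Hoxb5 differed from Hoxa7 at 2 of these bases, Hoxc8 at 4, Hoxd9 at 8, Hoxc10 at 9 and Hoxd11 at 7. Over the 60 residues of the homeodomain, the 42 pairs of genes from the same paralog group were identical at a median of 93.3% of residues, against 61.7% for the 699 pairs from different groups. Exact runs as long as a read were seldom shared, and runs with mismatches were not counted. Of the 741 pairs of Hox genes, 3 shared an exact run of at least 75 bases, the read length, in annotated coding transcripts. These were Hoxa2 with Hoxa3, Hoxb7 with Hoxb8 and Hoxd3 with Hoxd4, neighbors whose annotated transcripts overlap, and how the quantification divided their reads is uncertain. The library kit is not stated to keep the strand, so antisense transcripts annotated over exons, such as Hoxa11as over Hoxa11 and Hoxb3os over Hoxb2 and Hoxb3, could add to a level.

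Depth was similar among the libraries. The reads estimated behind all genes summed to between 21560318 and 25186594, and those behind the Hox genes to between 11239 and 12708. The RPKM of 1 read had a median over genes of 0.0195 to 0.0226. Cholinergic genes that define motor neurons were high, with Slc18a3, the vesicular acetylcholine transporter, at 309 to 477 RPKM and Chat, choline acetyltransferase, at 49.6 to 81.2 RPKM. Markers of other cells were also present, and G85R replicate 1 stood apart for astrocyte markers. The summed RPKM of 5 astrocyte markers reached 117 in the first G85R replicate and 44.3 in the other, against 29.2 and 32.4 in wild-type. That of 6 microglia markers was 26.7 and 12.4 in these libraries and 11.7 in both wild-type libraries. No astrocyte or microglia marker was at 0 in any library. Gfap alone, an astrocyte filament gene, was at 91.9 and 28.4 RPKM in G85R and 11.5 and 17.1 RPKM in wild-type, and the other 4 astrocyte markers summed to 24.8 and 15.9 RPKM in G85R and 17.7 and 15.3 RPKM in wild-type. The one marker that limma called was the red blood cell gene Hbb-b1, the higher of 2 entries, at 1.75 and 2.00 RPKM in wild-type and 10.7 and 10.2 RPKM in G85R (adjusted p = 0.00173). Markers of inhibitory interneurons summed to 145 to 167 RPKM and of oligodendrocytes to 706 to 912 RPKM. The share of the Hox reads that came from these other cells was not tested.

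The motor neuron libraries held a broad set of Hox transcripts, concentrated in paralog groups 5 to 10. These 18 genes carried between 90.1% and 91.2% of the summed Hox RPKM of each library, and 17 of them had a mean of at least 1 RPKM. Of the 21 genes in the other groups, 8 had such a mean, and Hoxc4 alone was above 5 RPKM. In all, 22 Hox genes were at 1 RPKM or more in all 4 libraries, 15 were at 5 or more and 3 were at 20 or more. The 3 genes with the highest mean, Hoxa7, Hoxc10 and Hoxc8, held 32.5% of the summed mean.

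**Figure D1:**
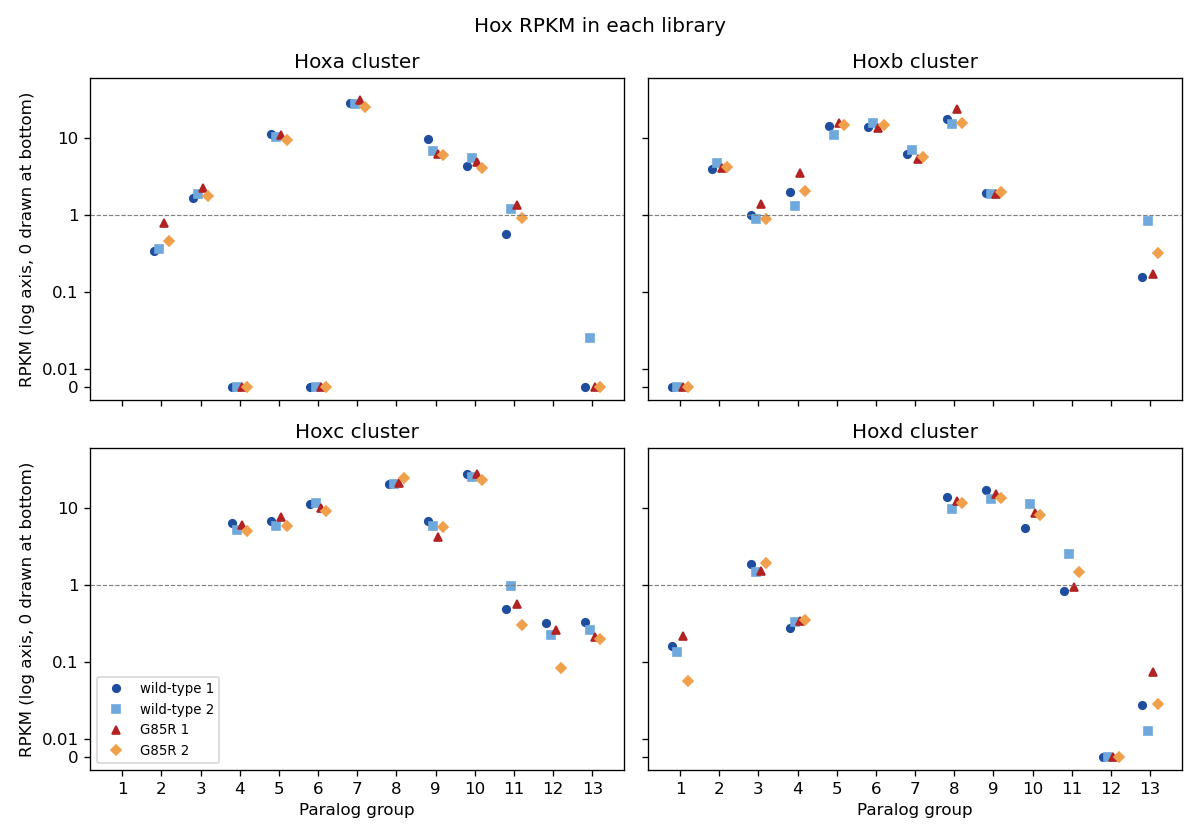
RPKM of 38 Hox genes (log axis, with 0 drawn at the bottom) against its paralog group, in 1 panel per cluster, with 1 point per library and a dashed line at 1 RPKM. Genes of groups 5 to 10 sit mostly above 1 RPKM in every cluster, Hoxa7 and Hoxc10 being the highest, and genes of groups 11 to 13 sit mostly around or below that line.

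Among the anterior genes, group 1 was barely detected. Its summed level was between 0.313 and 0.633 RPKM. Hoxd1 did not exceed 0.221 RPKM, or 11 estimated reads, and Hoxb1 was listed at 0 throughout. Group 2 differed within itself. Hoxb2 was at 4.05 and 4.76 RPKM in wild-type and 4.14 and 4.29 RPKM in G85R, while Hoxa2 did not exceed 0.802 RPKM. In group 3, Hoxa3 was at 1.66 and 1.87 RPKM in wild-type and 2.23 and 1.78 RPKM in G85R, with Hoxd3 and Hoxb3 near it at means of 1.72 and 1.05 RPKM. The order of Hoxa3 and Hoxd3 changed between libraries, with Hoxd3 the higher in wild-type replicate 1 and G85R replicate 2.

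Groups 4 to 7 contributed between 42.1% and 42.8% of the summed Hox RPKM. In group 4, Hoxc4 was at 6.54 and 5.15 RPKM in wild-type and 6.14 and 5.10 RPKM in G85R, above Hoxb4, and Hoxd4 stayed between 0.280 and 0.353 RPKM. Hoxc5, next to Hoxc4, was slightly higher than it in every library, the ratio of Hoxc4 to Hoxc5 being 0.785 to 0.951. Group 5 was led by Hoxb5, at 14.4 and 11.2 RPKM in wild-type and 15.8 and 14.96 RPKM in G85R. Hoxa5, which in the embryo is needed for the phrenic motor neurons of the diaphragm, followed at 9.60 to 11.3 RPKM. In group 6, Hoxb6 was at 13.97 and 15.9 RPKM in wild-type and 13.6 and 14.9 RPKM in G85R, and Hoxc6, which marks limb-innervating neurons at brachial levels, was at 11.3 and 11.7 RPKM in wild-type and 10.1 and 9.17 RPKM in G85R. Hoxa7 (chr6:52164490-52171853, minus strand) had the highest mean of all Hox genes, with 28.5 and 27.6 RPKM in wild-type and 31.6 and 25.5 RPKM in G85R. Its mean was above that of 89.8% of all genes, and the genotypes overlapped.

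Group 8 had the largest summed level, between 45.9 and 57.8 RPKM. Hoxc8, which takes part in specifying brachial motor pools, was at 20.6 and 20.5 RPKM in wild-type and 21.2 and 24.4 RPKM in G85R. Hoxb8 was at 17.9 and 15.4 RPKM in wild-type and at 24.1 and 15.8 RPKM in G85R, so that 1 G85R library was apart and the other was within the wild-type range. In group 9, Hoxd9 was highest, at 17.5 and 13.3 RPKM in wild-type and 15.4 and 13.4 RPKM in G85R. Hoxc9, known for setting thoracic motor neuron fate, was lower, at 6.85 and 5.95 RPKM in wild-type and 4.20 and 5.74 RPKM in G85R. Hoxb9 was even lower and hardly varied, between 1.92 and 1.99 RPKM.

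Group 10, which acts at lumbar levels, was the last group at a high level. Hoxc10 (chr15:102797227-102802324, plus strand) was at 28.0 and 25.6 RPKM in wild-type and 27.5 and 23.5 RPKM in G85R, next to Hoxa7 in order. It was below Hoxa7 within each of the 4 libraries, while the ranges of both genes over the libraries overlapped. Its neighbor Hoxc11 was far lower, at 0.486 and 0.985 RPKM in wild-type and 0.573 and 0.308 RPKM in G85R. The ratio of Hoxc10 to Hoxc11 was 25.9 to 76.3 in the 4 libraries. The corresponding step was smaller in the other clusters, with Hoxa10 at 3.63 to 7.67 times Hoxa11 and Hoxd10 at 4.47 to 9.09 times Hoxd11.

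Of the 9 genes in groups 11 to 13, 2 had a mean of at least 1 RPKM. Hoxd11 was at 0.846 and 2.52 RPKM in wild-type and 0.963 and 1.4996 RPKM in G85R, and Hoxa11 was at 0.579 and 1.22 RPKM in wild-type and 1.37 and 0.923 RPKM in G85R. The highest gene of group 12, Hoxc12, did not exceed 0.325 RPKM, or 8 estimated reads. The highest of group 13, Hoxb13, was at 0.156 and 0.858 RPKM in wild-type and 0.171 and 0.322 RPKM in G85R.

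Hoxa4, Hoxa6, Hoxb1 and Hoxd12 were listed at 0 in all 4 libraries, and Hoxa13 had 1 read in wild-type replicate 2 alone. A listed 0 is not by itself an absence here. The Hoxc neighbor Atp5g2, a subunit gene of the mitochondrial ATP synthase, was also listed at 0 in all 4 libraries. Another such subunit gene, Atp5g3, was at 649 to 709 RPKM, and whether Atp5g2 was missed or silent was not tested. Within the clusters lay 12 entries that are not Hox genes, of which 2 had a mean of at least 1 RPKM. The higher, AK146012, listed in the Hoxa cluster, was at 20.4 and 14.3 RPKM in wild-type and 20.0 and 17.1 RPKM in G85R, a level like that of the leading Hox genes. The other, 1700109F18Rik, which is annotated on the opposite strand over Hoxd3 and Hoxd8, was at 4.08 to 6.38 RPKM.

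**Figure D2:**
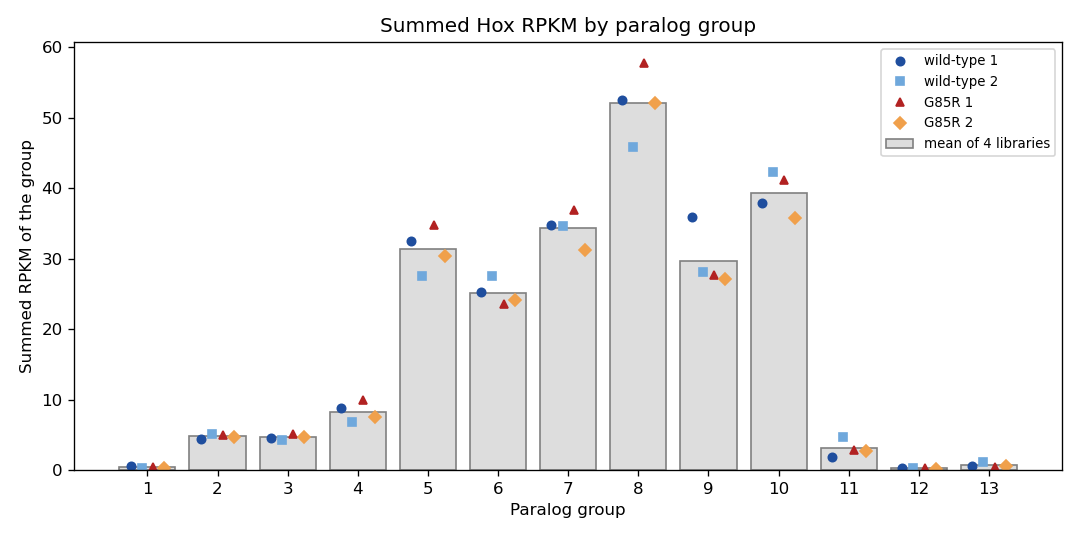
Summed RPKM of the genes of each paralog group, with bars from 0 for the mean of 4 libraries and 1 point per library. The sum is largest in group 8 and falls from a mean of 39.3 RPKM in group 10 to 3.07 RPKM in group 11.

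The clusters contributed unequally. The Hoxc cluster gave the largest share of the summed Hox RPKM in every library, 31.7% to 33.9%, followed by Hoxb with 25.7% to 28.4%, Hoxa with 22.0% to 23.8% and Hoxd with 16.1% to 17.0%. The ranges of the 4 clusters did not overlap. Genes listed at 0, which include Hoxa4 and Hoxa6 of the Hoxa cluster, count as 0 in these sums, and the order was not tested against reads missed there.

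Whether the Hox profile differed between wild-type and G85R motor neurons was asked with limma on log2(RPKM + 0.1), fitted to the 11530 genes with a mean of at least 1 RPKM, with Benjamini-Hochberg adjustment over all of them. Of the 39 Hox genes, 25 passed this minimum and 14 did not. None of the 25 was called at an adjusted p under 0.05 in limma, where 0.642% of all tested genes were called, and 0 had an unadjusted p under 0.05, against 1272 of all 11530 tested genes. The log-linear likelihood ratio test over all genes called 0 Hox genes, and 0 Hox genes had an unadjusted p under 0.05 in it. It took rounded RPKM, with 1 read added, as if they were counts. Its outcome therefore depends on the unit and adds no support to that of limma. The count of Hox genes with an unadjusted p under 0.05 in limma depended on the setting and on the libraries used. It was 1 after rescaling by the median ratio, 1 with quantile normalization and 1 with a robust variance estimate. With no minimum RPKM it was 1, and with a replicate block it was 5. It stayed at 0 with other pseudocounts, with a minimum mean of 0.1 or 5 RPKM and without the variance trend. Fold changes were small in both directions, with 13 genes above 0 and 12 below. Their median log2 fold change, G85R over wild-type, was 0.02, beside a median of -0.02 for all tested genes.

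**Figure D3:**
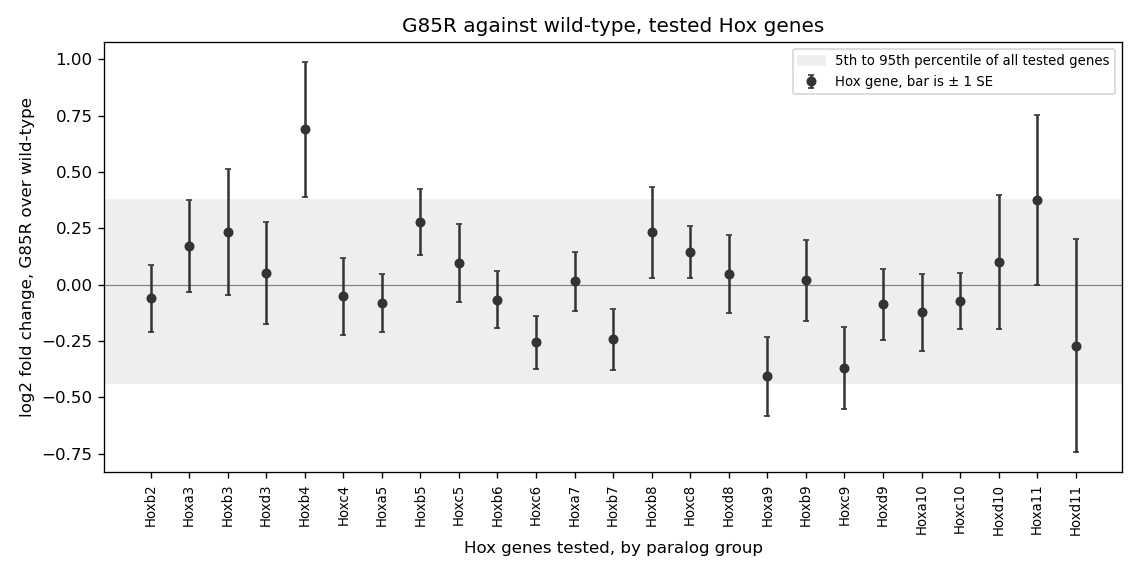
Log2 fold change of G85R over wild-type with ± 1 SE from limma for the 25 tested Hox genes, in order of paralog group, over a grey band from the 5th to the 95th percentile of all tested genes (-0.43 to 0.38). Hoxb4 lies above the band with its SE, Hoxa11 lies at the upper edge of the band, and the other genes lie within it.

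Of the 25 genes, 3 had both G85R libraries above both wild-type libraries (12% of them, against 17.3% of all tested genes) and 4 had both below (16%, against 23.9%). The higher genes were Hoxb4, Hoxb5 and Hoxc8, and the lower genes were Hoxa9, Hoxb7, Hoxc6 and Hoxc9. Neither share was tested against that of all tested genes, and the median SE was 0.174 for the tested Hox genes and 0.140 for all tested genes.

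The smallest p belonged to Hoxb4, an anterior gene of group 4. It was at 2.02 and 1.34 RPKM in wild-type and 3.52 and 2.10 RPKM in G85R. The genotypes did not overlap, but the lower G85R library lay close to the higher wild-type library, and the log2 fold change of 0.69 ± 0.30 (SE, n = 2 against 2) had an adjusted p of 0.467 in limma. Hoxb4 was the only tested Hox gene whose genotype means differed by over 1.5 times. Leaving out G85R replicate 1, its highest library, reduced the log2 fold change to 0.33, and it was 0.41 without wild-type replicate 2 and 1.05 without G85R replicate 2.

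Hoxa9 was at 9.67 and 6.91 RPKM in wild-type and 6.26 and 6.02 RPKM in G85R. Wild-type replicate 1 stood above the other 3 libraries, and the log2 fold change of -0.41 ± 0.18 (SE) had an adjusted p of 0.467 in limma. It was -0.17 without wild-type replicate 1 and -0.65 without wild-type replicate 2. Hoxc9 and Hoxc6 were lower in G85R as well, with log2 fold changes of -0.37 ± 0.18 and -0.26 ± 0.12 (SE) and adjusted p of 0.525 and 0.496 in limma. Hoxb5 had a log2 fold change of 0.28 ± 0.15 (SE) and an adjusted p of 0.559 in limma. The fold change of Hoxb5 was 0.098 without wild-type replicate 2 and 0.46 without wild-type replicate 1, and that of Hoxc9 was -0.15 without G85R replicate 1 and -0.59 without G85R replicate 2, on the log2 scale.

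The genes with the highest mean in their paralog group, other than Hoxb5, are given next. The log2 fold change was 0.02 ± 0.13 (SE) for Hoxa7, -0.07 ± 0.12 for Hoxc10 and 0.14 ± 0.12 for Hoxc8, with limma adjusted p of 0.982, 0.908 and 0.735. It was -0.09 ± 0.16 for Hoxd9, -0.07 ± 0.12 for Hoxb6 and -0.05 ± 0.17 for Hoxc4, with limma adjusted p of 0.919, 0.922 and 0.957. Among the lower genes it was -0.06 ± 0.15 for Hoxb2, 0.17 ± 0.20 for Hoxa3 and -0.27 ± 0.47 for Hoxd11, with limma adjusted p of 0.942, 0.852 and 0.915. Hoxc12 and Hoxb13 were below the minimum and were not tested.

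The total did not separate the genotypes either. Summed over 39 genes, Hox RPKM was 240 and 229 in the wild-type animals and 246 and 222 in the mutant animals, or 234 ± 8.13 and 234 ± 17.6 (SD, n = 2 each). The difference of G85R minus wild-type was -0.51 RPKM, with a two-sided p of 1 in an exact permutation test, which with 2 against 2 libraries cannot go below 0.333.

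For many Hox genes, the exact interval for counting error of the ratio between the 2 wild-type libraries left out 1. In replicate 2 over replicate 1, the interval lay above 1 for 6 of the 11 genes with reads in groups 10 to 13 and below 1 for 1. In groups 4 to 9 it lay above 1 for 1 of 17 genes and below 1 for 8, among them Hoxb4 at a ratio of 0.666, Hoxd8 at 0.708 and Hoxa9 at 0.715. The largest wild-type ratios were those of posterior genes, which were singled out after their values were seen. Hoxd10, a lumbar gene, was at 5.52 RPKM in wild-type replicate 1 and 11.2 RPKM in wild-type replicate 2, with G85R at 8.75 and 8.18 RPKM between them. The ratio of replicate 2 to replicate 1 was 2.04 (95% exact interval for counting error 1.77 to 2.35, from 617 and 285 reads). It was 2.97 (1.88 to 4.87) for Hoxd11 from 79 and 25 reads, 2.10 (1.42 to 3.17) for Hoxa11 from 85 and 38 reads, 2.03 (1.02 to 4.26) for Hoxc11 from 28 and 13 reads and 5.49 (2.28 to 15.97) for Hoxb13 from 35 and 6 reads. These intervals cover counting error only and may be too narrow for it, since reads of an amplified library are not independent molecules. With 1 library per animal, differences between animals and between library preparations cannot be told apart. Other posterior genes varied, as Hoxa10 was higher in replicate 2 by less, at a ratio of 1.25 (1.08 to 1.44). Hoxc10 was lower, at 0.913 (0.846 to 0.985). The intervals of Hoxc12, Hoxc13 and Hoxd13 included 1. Those of Hoxc12 (0.202 to 2.32) and Hoxd13 (0.00798 to 9.04) were too wide to show whether these genes shared the difference.

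**Figure D4:**
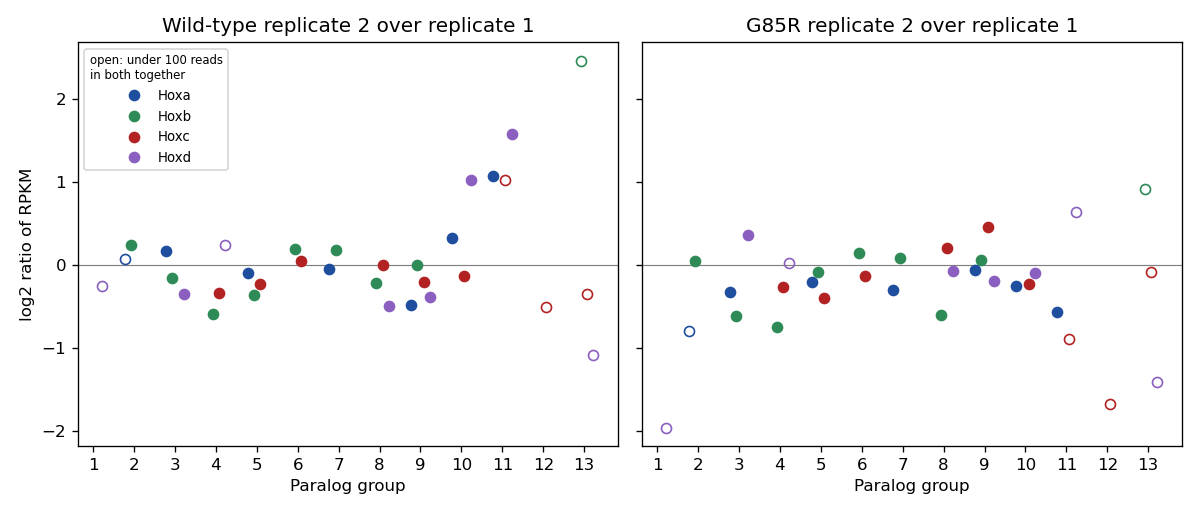
Log2 ratio of RPKM in replicate 2 over replicate 1, for wild-type (left) and G85R (right), against paralog group, for 33 Hox genes above 0 in all libraries, with open circles for genes with under 100 estimated reads in both libraries together. In wild-type, Hoxd10, Hoxa11, Hoxc11, Hoxd11 and Hoxb13 lie above 1, while the well covered genes of groups 2 to 9 lie within 1 of 0 in both panels.

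Groups 10 to 13 together held 16.9% and 21.2% of the summed Hox RPKM in wild-type replicates 1 and 2, against 18.2% and 17.7% in G85R replicates 1 and 2. The difference of G85R minus wild-type was -1.11 percentage points, with a two-sided p of 1 in an exact permutation test. Its sign depended on 1 library, as it was 1.01 without wild-type replicate 2 and -3.22 without wild-type replicate 1. The number of cell bodies taken from each cord level was not given in the sources used here, and its part in these values was not tested.

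The genes that differed between the G85R libraries were only in part those of the wild-type pair. Hoxb8, Hoxb4 and Hoxb3 were 1.52, 1.68 and 1.53 times higher in replicate 1 than in replicate 2, with an interval for counting error of 1.33 to 2.12 for Hoxb4. Replicate 1 is the library with the highest astrocyte and microglia markers, and the part of those cells in these values was not tested. In each genotype, 4 of the 25 tested Hox genes differed by over 1.5 times between replicates. These were Hoxa11, Hoxb4, Hoxd10 and Hoxd11 in wild-type, and Hoxb3, Hoxb4, Hoxb8 and Hoxd11 in G85R. The share over all tested genes was smaller, at 4.87% in wild-type and 4.88% in G85R. The median absolute log2 difference over the tested Hox genes was 0.23 between the wild-type libraries and 0.23 between the G85R libraries, and 0.15 to 0.23 between libraries of different genotype. Over all tested genes it was 0.16 between the wild-type libraries, 0.15 between the G85R libraries and 0.15 to 0.19 between libraries of different genotype.

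Genes that work with Hox proteins or act upstream of them were listed from textbook knowledge and described by their counts. No gene of these lists was called by limma, while an unadjusted p under 0.05 was found for 2 TALE cofactors, 2 motor neuron column genes, 2 Polycomb genes, 3 retinoid genes and 0 Trithorax or flanking genes. The log-linear test, which depends on the unit of RPKM, called 0 genes of these lists. The TALE homeodomain cofactors Pbx, Meis and Pknox bind DNA beside Hox proteins. Of 9 listed, 8 had an entry and all 8 passed the minimum, the highest being Meis2 at 9.99 to 21.6 RPKM and Pbx2 at 12.96 to 18.2 RPKM. The 8 tested cofactors had a median log2 fold change of 0.05, and 3 were higher in both G85R libraries than in both wild-type libraries, as were 17.3% of all tested genes. The 8 tested genes of motor neuron columns and pools all had a negative log2 fold change (median -0.30), and 4 were lower in both G85R libraries, as were 23.9% of all tested genes. Of the 8 motor neuron markers, 2 of which are also in this list, 7 had a negative log2 fold change (median -0.21) and 4 were lower in both G85R libraries, while the median was 0.51 for the astrocyte and 0.38 for the tested microglia markers. The summed astrocyte and microglia markers were highest in G85R replicate 1. Differences in cell share and in marker RNA per cell cannot be told apart here, and their part in the list was not tested. The column and pool genes were led by Mnx1, a homeodomain factor of motor neurons. It was at 17.8 and 18.3 RPKM in wild-type and 15.1 and 16.8 RPKM in G85R.

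Polycomb proteins keep Hox genes silent, and Trithorax proteins oppose them. Of the 16 tested Polycomb genes, 2 were higher and 6 lower in both G85R libraries, beside 17.3% and 23.9% of all tested genes, with a median log2 fold change of -0.03. The smallest adjusted p in limma was 0.0814, for Pcgf2, at 1.47 and 1.55 RPKM in wild-type and 3.06 and 3.04 RPKM in G85R. Cbx6 was the highest, at 56.4 to 85.8 RPKM. Ezh1, the H3K27 methyltransferase of nondividing cells, was at 16.9 to 19.9 RPKM, while Ezh2, that of dividing cells, did not exceed 0.371 RPKM. The 7 tested genes of the Trithorax complexes and of H3K27 demethylases had a median log2 fold change of -0.01, and Men1, encoding menin, was the highest at 33.7 to 40.2 RPKM. One of them, Wdr5, was listed at 0 in wild-type replicate 1 and at 6.61 to 7.46 RPKM in the other libraries.

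Retinoic acid and Cdx factors set Hox expression in the embryo. Of the 9 tested genes of this list, 8 had a negative log2 fold change (median -0.29) and 5 were lower in both G85R libraries, beside 23.9% of all tested genes, and the smallest adjusted p in limma was 0.266. Summed motor neuron markers were at 2534 and 3276 RPKM in G85R replicates 1 and 2, against 3204 and 3594 RPKM in wild-type. Oligodendrocyte markers summed to 912 and 706 RPKM in G85R, against 750 and 715 RPKM in wild-type. The part of these marker differences in the retinoid list was not tested. Rxra, a retinoid receptor, was at 17.3 and 17.9 RPKM in wild-type and 13.3 and 15.6 RPKM in G85R, and Gdf11, which promotes posterior Hox expression in the embryo, was at 7.78 and 9.12 RPKM in wild-type and 12.8 and 9.46 RPKM in G85R. The genes that flank the clusters had 9 tested members with a median log2 fold change of 0.07. Beside the clusters, Hibadh was at 36.3 to 42.6 RPKM, while Evx1 and Evx2, the homeobox genes at the posterior ends of the Hoxa and Hoxd clusters, did not exceed 1.02 and 0.105 RPKM.

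**Figure D5:**
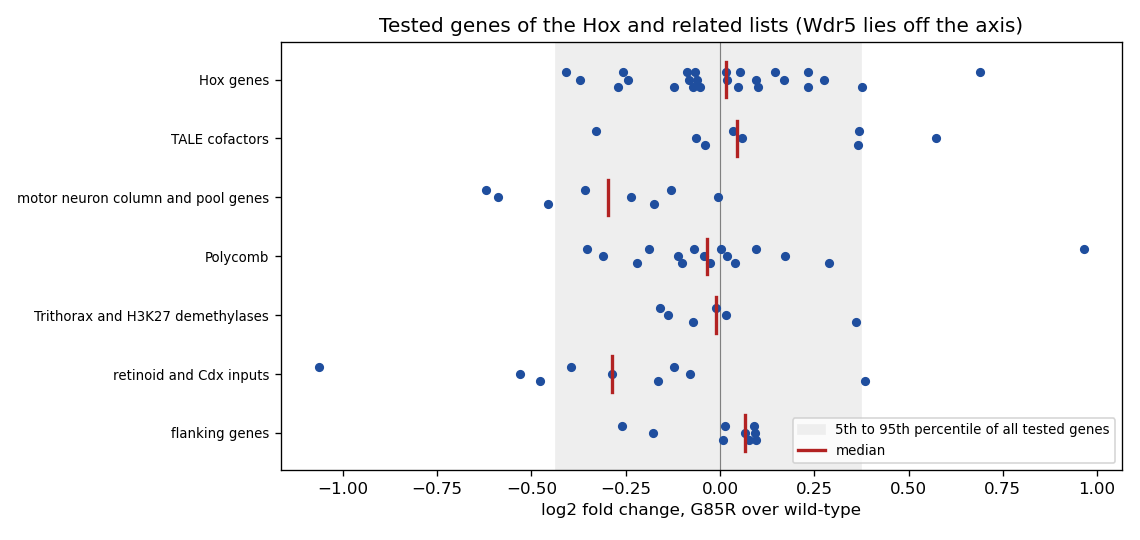
Log2 fold change of G85R over wild-type for the tested Hox genes and the tested genes of the related lists, 1 point per gene, with a red line at each median and a grey band from the 5th to the 95th percentile of all tested genes. The Hox median of 0.02 lies near 0, and the medians of the motor neuron column and retinoid lists lie at -0.30 and -0.29. Wdr5, listed at 0 in 1 library, counts in its median and lies off the axis.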

How the data were processed

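The authors mapped 75-base reads with Bowtie 0.12.3 to mm9 and to splice junctions and quantified UCSC gene clusters with Cufflinks. The deposited values are RPKM, as calculated and with 1 read added to each gene. The difference of both is the RPKM of 1 read, and reads behind a gene were estimated by dividing by it. For the 29 Hox genes with 1 transcript, 91 of 97 estimates above 0 were whole within 0.1.

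The comparison of genotypes used lmFit and eBayes with trend (limma 3.58.1, R 4.3.3) on log2(RPKM + 0.1), keeping genes whose mean RPKM reached 1. On simulated data where 200 genes among 11530 were changed 4-fold, 210 were called, 10 of them falsely, and 100% were recovered. A 4-fold change exceeds that of every tested Hox gene, so recovery at the sizes seen in Hox genes was not tested. Ratios used exact binomial intervals on estimated reads. Python 3.11.15 and scipy 1.17.1 were used. Libraries are single animals, and 2 per genotype limit every p.

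Full statistics are given for the highest Hox gene of each paralog group and the 5 with the smallest p. One gene is counted in the totals and not reported here. From the other lists, up to 4 genes of highest mean were eligible to be named, and Ezh1, Ezh2, Pcgf2, Calca, Nefh, Evx1 and Evx2 were named after their values were seen. The members and lists were chosen with earlier results of these data known. Alternatives were other pseudocounts, scalings, minimum RPKM, variance estimates, a replicate block, a log-linear test and leaving out each library. Positions and coding sequences came from GENCODE on NCBIM37.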

Additional observations from a re-analysis of the deposited data

How the results depend on the processing

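No Hox gene was called under any of the alternatives, and 22 Hox genes stayed at 1 RPKM or more with any 1 library left out. The count over all tested genes was 74, and it was 39 with quantile normalization, 17 with a minimum mean of 5 RPKM, 112 with no minimum, 49 without the variance trend, 142 at an adjusted p under 0.1, and 78 to 188 with 1 library left out, where the lone library of a genotype is assumed to vary like the others. The highest of these, 188, was without G85R replicate 2. The median log2 fold change of the Hox genes was -0.060 and -0.059 at a minimum of 0.1 and 5 RPKM, where more or fewer Hox genes were tested, and -0.048 to 0.040 with 1 library left out. Single-library omissions turned the sign of 7 named genes, whose values spanned -0.14 to 0.17 for Hoxa7, -0.17 to 0.054 for Hoxb2, -0.16 to 0.027 for Hoxb6, -0.19 to 0.040 for Hoxc10, -0.22 to 0.12 for Hoxc4, -0.28 to 0.11 for Hoxd9 and -1.004 to 0.46 for Hoxd11. The cause of these changes was not tested.

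A replicate block raised the count over all genes to 527 and left it at 0 for Hox genes, the smallest adjusted p of a Hox gene being 0.0779. Libraries of the same number deviated together only weakly, with a correlation of 0.22 over the tested genes and 0.28 over the tested Hox genes. The paper plots G85R to wild-type ratios by replicate pair. The labels give no more than a number, so whether libraries of the same number were handled together is not known.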
